A study of Homo sapiens with 12 samples.

Results

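CHIT1 and CHIA encode the human chitinases, and CHI3L1 and CHI3L2 encode their close chitinase-like relatives without enzyme activity. The 4 genes were taken by name as a gene family, by a rule that uses no measured value though earlier results of these data were known, and they are 4 of the 58735 genes in the count table. Their RNA was read in tumor-associated macrophages (TAMs), where 1 of them, CHI3L1, was the most counted gene outside the mitochondrial genome in 12 of 12 libraries. CHIT1 and CHI3L2 were low to moderate, and CHIA was at or close to 0.

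The 4 proteins belong to glycoside hydrolase family 18, whose enzymes cleave chitin, the N-acetylglucosamine polymer of fungal walls and arthropod shells. CHIT1 (chitotriosidase) and CHIA (acidic mammalian chitinase) are active enzymes. CHIT1 is secreted by activated and lipid-laden macrophages and is used in the clinic as a plasma marker of Gaucher disease, whereas CHIA is known mainly from stomach and airway. CHI3L1 (YKL-40) and CHI3L2 (YKL-39) have lost the catalytic residue. They are secreted proteins that bind sugars, and CHI3L1 is known as a product of differentiated macrophages and of many tumours, where it has been tied to survival and angiogenic signalling.

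The study asked how MMP28, a secreted matrix metalloproteinase, alters TAMs through cytokines released by pancreatic cancer cells. The TAMs were made from THP-1, a human acute monocytic leukaemia line, with the phorbol ester PMA, and were cultured across a porous membrane from AsPC-1, a human pancreatic cancer line. Each of 4 groups held 3 libraries. In the control group the AsPC-1 cells carried the control vector (the group is labelled NC), and in the OE-MMP28 group they stably overexpressed MMP28 from a lentivirus. In the anti-IL-8 group a neutralizing antibody against IL-8 was added to the OE-MMP28 coculture, and in the anti-VEGFA group a neutralizing antibody against VEGFA was added to it. Both antibody groups therefore carry the overexpression as well, and no group of these libraries is labelled with a control antibody. The effect of an antibody as such and that of blocking its target cannot be told apart in them. All 4 groups share the same leukaemia line, PMA and the coculture, so that neither monocytes without PMA nor TAMs cultured alone were measured. The study describes triplicate samples per group and repeated cell experiments, without saying whether the 3 libraries of a group came from separate cultures. If they did not, p-values measure only the spread between these libraries, which may be technical.

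The libraries held 15852346 to 18701195 counts, and at this depth 3 counts corresponded to 0.160 to 0.189 CPM (counts scaled to a common library total). The share of counts on mitochondrially encoded genes ranged from 6.92% in anti-VEGFA replicate 1 to 17.8% in anti-VEGFA replicate 2. MMP28 had 0 counts in all 12 libraries. It was overexpressed in the cancer cells and not in the TAMs, so this does not check the labels. Of 10 macrophage markers, 9 passed the filter on low counts, and CD14 had at least 11260 counts in each library. Mean counts were 8935 for ITGAM, 4761 for SPI1, 4741 for FCER1G, 3766 for TYROBP and 2638 for CSF1R. CD33, AIF1 and LYZ were low, at means of 284, 209 and 126.5 counts. For LYZ, 34.0% of the annotated exon bases lie in another gene, and the part of this in its count was not tested. The marker that did not pass was CD68, listed at 0 to 5 counts, 85.8% of whose annotated exon bases also lie in other genes. The part of that overlap in its low count was not tested. Of 12 epithelial markers that would mark AsPC-1 cells, 4 passed the filter. EPCAM was at 0 in every library, KRT8 at 1 to 7 counts, KRT19 at 0 to 4 and CDH1 at 0 to 10. MUC1 reached 28 to 65 counts, and mean counts per library were 20.8 for S100P, 12.25 for KRT7 and 8.67 for ELF3.

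The 4 genes lie on chromosome 1 in 2 pairs, given here on GRCh38 with GENCODE 29, the annotation that all 58735 gene identifiers of the table match. CHI3L1 (ENSG00000133048) spans chr1:203178931-203186749 on the minus strand, and CHIT1 (ENSG00000133063) follows at chr1:203212827-203273641 on the same strand, 26077 bases away with no annotated gene between. CHI3L2 (ENSG00000064886) spans chr1:111200771-111243440 on the plus strand. CHIA (ENSG00000134216) lies 47421 bases beyond it at chr1:111290862-111320566, also on the plus strand, with the pseudogenes CHIAP2 and CHIAP1 between. The principal transcripts have 10 exons and a coding length of 1149 bases for CHI3L1, and 11 exons and 1398 bases for CHIT1. For CHI3L2 they are 13 exons and 1170 bases, and for CHIA 12 exons and 1428 bases. CHI3L2 and CHIA each have a shorter transcript of the same principal rank, with 11 exons and the same coding length, and the longer was used.

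The promoters of the 3 detected members are shown because the members of a pair lie close together while their levels differ by orders of magnitude. The table of RefSeq start sites (GRCh38.p14) held 1 start for CHI3L1, 1 for CHIT1 and 2 for CHI3L2, and none for CHIA. Each line gives the 30 bases that run from 40 to 11 bases before the start, 5′ to 3′ on the strand of the gene, which is where a TATA box usually lies. The letters TATAAA are in capitals where they occur.
CHI3L1, chr1:203186715-203186744, minus strand: agtgggacaggtaTATAAAggaagtacagg
CHIT1, chr1:203229684-203229713, minus strand: cagggtggccagataaaagcagagcaggac
CHI3L2, first start, chr1:111227619-111227648, plus strand: gccaggggaagtccctggacttcttgcttc
CHI3L2, second start, chr1:111227673-111227702, plus strand: acctcagtggataaaagacctagagaatgt

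Variants of TATAAA were not searched, and both the CHIT1 window and the second CHI3L2 window hold GATAAAAG. CHI3L1 alone among the 4 windows holds the exact letters TATAAA, with the first base 27 bases before the RefSeq start. That placement was found in 2.30% of 35116 RefSeq promoters, counting TATAAA on the strand of the gene that begins 21 to 40 bases before the start. In the GENCODE principal transcript of CHI3L1 the start lies 45 bases further upstream, so that these letters fall within its first exon. The GENCODE principal transcript of CHI3L2 used here, the longer, begins 26888 bases upstream of the first RefSeq start. The CHI3L2 windows are therefore not the promoter of that transcript, and the start of the shorter principal transcript was not compared. Over the 300 bases from 250 before to 50 after each start, read on both strands, GAGGAA (the core bound by PU.1 and other ETS factors) was found 219 bases before the CHIT1 start and 245 bases before the first CHI3L2 start, and in 27.9% of all promoters. TTCNNNGAA, the GAS element bound by STAT factors, was found 62 bases before the first CHI3L2 start, which is the same site as the match 116 bases before the second, and in 7.66% of all promoters. GGGCGG (bound by SP1, in 45.0% of all promoters), TGANTCA (AP-1, 7.71%) and the 10-base NF-kB element (0.558%) were found in none of the 4 windows. These matches are letters in a window and not measured sites.

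Reads of the members could be told from each other. No run of 31 bases was shared between the transcripts of any pair of the 4 genes. None of the exon bases of CHI3L1, CHIT1 and CHI3L2 lay in another annotated gene. Of their runs of 31 bases, 3.32%, 0.267% and 0.828% in the same order recurred in transcripts of other genes. For CHIA, 4.45% of the exon bases overlapped the antisense gene AL356387.1, and 7.66% of its runs of 31 bases recurred in other genes, most of them in CHIAP2.

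Levels were compared between genes per length, as FPKM (fragments divided by gene length and by library depth). The deposited values use the merged exon length of each gene and a depth of 0.939 to 1.08 times the library total. The mean FPKM over the 12 libraries was 5128 for CHI3L1, with a range of 4049 to 6694. It was 15.9 for CHIT1 (10.2 to 20.8), 6.26 for CHI3L2 (4.47 to 7.86) and 0.005 for CHIA (0 to 0.037). The order CHI3L1, CHIT1, CHI3L2, CHIA held in 12 of 12 libraries, and the ranges of the 4 genes did not overlap.

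By mean FPKM, CHI3L1 ranked 2 among 34398 genes outside the mitochondrial genome with a value above 0, behind the ferritin light chain gene FTL at 5863, and its rank within single libraries was 1 to 3. CHIT1 ranked 2455, CHI3L2 5146 and CHIA 32199. By counts, which favour long transcripts, CHI3L1 had a mean of 295435 per library and was exceeded only by the mitochondrial gene MT-CO1, at 352908.

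**Figure D1:**
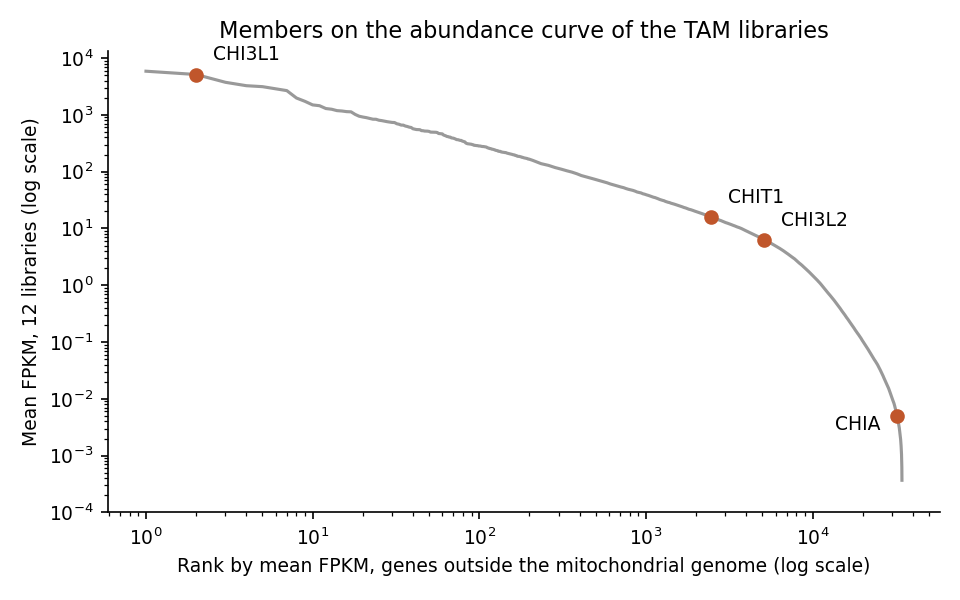
Mean FPKM over 12 libraries (y axis, log scale) of genes outside the mitochondrial genome against their rank (x axis, log scale), with the 4 members marked on the curve. CHI3L1 sits at rank 2 with 5128 FPKM, CHIT1 at rank 2455 with 15.9, CHI3L2 at rank 5146 with 6.26 and CHIA at rank 32199 with 0.005.

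Within a library, the FPKM of CHI3L1 was 272 to 398 times that of its neighbour CHIT1 (median 321) and 677 to 1190 times that of CHI3L2 (median 796). CHIT1 exceeded CHI3L2 by 1.70 to 3.32 times (median 2.79). These ratios depend on the length by which counts are divided, since the deposited lengths are of all exons merged (3408 bases for CHI3L1, 7730 for CHIT1, 3295 for CHI3L2) and the principal transcripts are shorter (1792, 2246 and 2169 bases). Per kilobase of principal transcript, the mean counts of CHI3L1 were 178 times those of CHIT1 and 1021 times those of CHI3L2, and those of CHIT1 were 5.74 times those of CHI3L2. For CHI3L2 the longer of its equally ranked principal transcripts was used, and the shorter, of 1468 bases, would lower both ratios to CHI3L2. The order of the genes did not depend on the choice of length.

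Counts of CHI3L1 took a large part of each library. Its share of the library total was 1.59%, 1.45% and 1.58% in the 3 control libraries, 1.74%, 1.44% and 1.87% with OE-MMP28, 1.96%, 1.87% and 2.20% with anti-IL-8, and 2.02%, 1.51% and 1.87% with anti-VEGFA. The exact 95% binomial (Clopper-Pearson) interval was 1.44% to 1.45% for the lowest library, OE-MMP28 replicate 2, and 2.19% to 2.21% for the highest, anti-IL-8 replicate 3. Such intervals cover counting error only, and libraries of 1 group differed by far more than that.

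The mean share was 1.54% ± 0.0775 in control, 1.68% ± 0.219 with OE-MMP28, 2.01% ± 0.171 in the anti-IL-8 group and 1.80% ± 0.262 in the anti-VEGFA group (SD, n = 3 each). The anti-IL-8 libraries were all above the control libraries. In the scaled counts used below, 47.8% of all genes tested were without overlap between these 2 groups. The mitochondrial share was 8.55% ± 1.28, 10.8% ± 2.11, 9.81% ± 1.31 and 11.7% ± 5.57 in the same groups. With mitochondrially encoded genes left out of the total, the mean CHI3L1 share was 1.68%, 1.89%, 2.23% and 2.03%, in the same order of groups. CHI3L1 supplied 99.0% to 99.3% of the counts of the 4 members together. CHIT1 held between 0.00822% and 0.0151% of a library, and CHI3L2 between 0.00152% and 0.00264%.

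**Figure D2:**
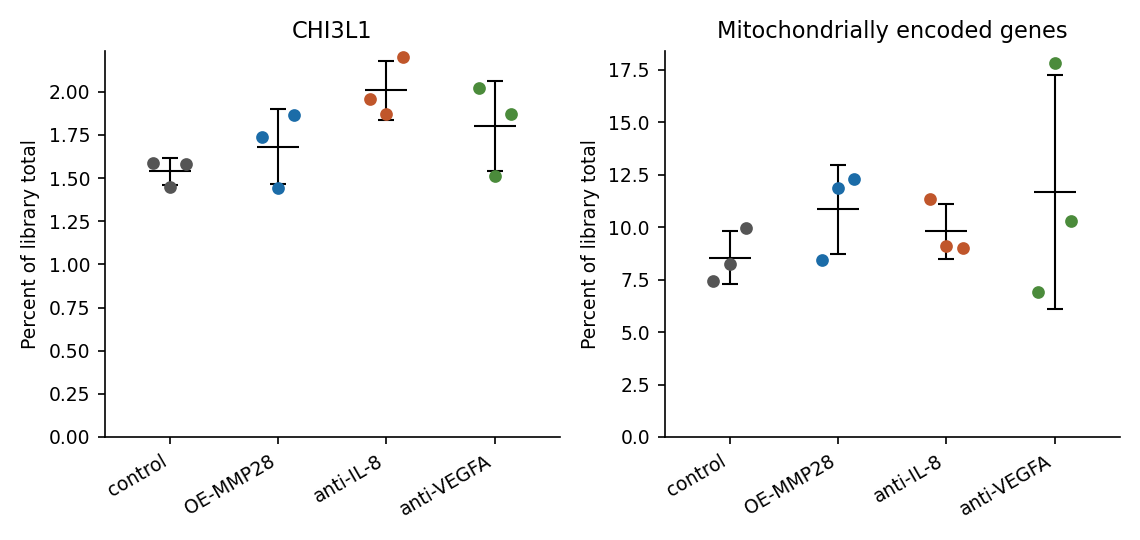
Share of the library total, in percent, taken by CHI3L1 (left) and by all mitochondrially encoded genes (right) in each library (points) of the 4 groups, with the mean and SD of the 3 libraries as a line and bars. CHI3L1 shares run from 1.44% to 2.20%, and the widest spread of the mitochondrial share, 6.92% to 17.8%, is in the anti-VEGFA group.

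For the comparisons between groups, counts were scaled by edgeR's TMM factors and are given as CPM. No member passed an adjusted p of 0.05 in any of the 6 comparisons between groups or in the test of any difference among the 4 groups (edgeR quasi-likelihood test, Benjamini-Hochberg over 16046 genes). The filter on low counts left 3 of the 4 members to test, CHIA being the 1 that fell out. Among all genes tested, the share past this threshold was 3.16% for OE-MMP28 against control, 0% for anti-IL-8 against OE-MMP28, 0.343% for anti-VEGFA against OE-MMP28, 20.7% for anti-IL-8 against control, 11% for anti-VEGFA against control and 0.199% for anti-VEGFA against anti-IL-8, and 17.2% for any difference. The 0% depended on the settings. The smallest adjusted p in that comparison was 0.063, and 4700 genes had an unadjusted p under 0.05. At the adjusted threshold voom and limma on log2(FPKM + 1) also called 0 genes, whereas edgeR called 1438 with no filter, 4125 without OE-MMP28 replicate 3 and 1166 once anti-VEGFA replicate 2 was left out, and DESeq2 called 2259. At an unadjusted p under 0.05, the only member in any of the 6 comparisons was CHI3L1 in anti-IL-8 against control, where 35.9% of all genes tested passed that threshold. The 2 comparisons with antibody share the OE-MMP28 libraries with the first comparison, and the 3 against control share the control libraries, so they are not independent of each other.

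The 3 values of a member in 1 group lay wholly above or below those of another in 3 cases. These were CHI3L2 in OE-MMP28 against control, and CHI3L1 in anti-IL-8 and in anti-VEGFA against control. In those 3 comparisons 21.3%, 47.8% and 34.3% of all genes tested were likewise without overlap. No member was without overlap in anti-IL-8 against OE-MMP28, anti-VEGFA against OE-MMP28 or anti-VEGFA against anti-IL-8, where the shares of all genes tested were 29%, 18.1% and 20.9%. With 3 members tested, such counts describe the members and set them apart from no other genes.

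CHI3L1 had 15653, 13997 and 15410 CPM in the control libraries. In the OE-MMP28 libraries it had 16848, 13967 and 20141 CPM. The lowest OE-MMP28 library was at the level of the lowest control library and the highest stood well above all controls, so that the groups overlapped. The mean was 15020 ± 894 CPM in control and 16986 ± 3089 with OE-MMP28 (SD, n = 3), a log2 fold change of 0.18 (SE 0.16, 95% interval -0.17 to 0.52) with an adjusted p of 0.68 by edgeR. In bulk RNA, fewer cells of a type and less RNA per cell cannot be told apart.

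CHI3L1 had 20995, 18401 and 22651 CPM in the anti-IL-8 libraries, with a mean of 20682 ± 2142 (SD, n = 3). Of these, 2 were above every OE-MMP28 library, and the third fell between OE-MMP28 replicates 1 and 3. Against OE-MMP28 the log2 fold change was 0.28 (SE 0.16, 95% interval -0.06 to 0.63), with an adjusted p of 0.25 by edgeR. In the anti-VEGFA libraries CHI3L1 had 19039, 16075 and 18666 CPM, with a mean of 17927 ± 1614 (SD, n = 3), all within the range of the OE-MMP28 libraries. Against OE-MMP28 the log2 fold change was 0.08 (SE 0.16, 95% interval -0.26 to 0.42), with an adjusted p of 0.83. The addition of either antibody to the OE-MMP28 coculture was thus not accompanied by a detected change in CHI3L1, and the intervals leave room for a difference in either direction.

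The widest separation for CHI3L1 was between anti-IL-8 and control. All 3 anti-IL-8 libraries were above all 3 control libraries, and 47.8% of all genes tested were likewise without overlap there. The fold of CHI3L1 was 1.38 (95% interval 1.09 to 1.75), a log2 fold change of 0.46 (SE 0.16) with an unadjusted p of 0.011 and an adjusted p of 0.053 by edgeR. This value sat at the threshold, and 13 of 22 alternatives placed it past 0.05. DESeq2 gave an adjusted p of 0.0085, voom 0.036 and a fit of the 2 groups alone 0.0070, whereas library totals in place of TMM gave 0.078 and limma on the deposited FPKM 0.21 and 0.24. Without control replicate 1, 2 or 3 it was 0.096, 0.17 or 0.12, without OE-MMP28 replicate 1 it was 0.070, and without anti-IL-8 replicate 1 or 3 it was 0.11 or 0.16. It was below 0.05 without any other single library, at 0.019 to 0.048. The log2 fold change lay between 0.38 and 0.54 over all 22 alternatives.

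Anti-VEGFA against control gave a log2 fold change of 0.26 for CHI3L1 (SE 0.16, 95% interval -0.09 to 0.60) with an adjusted p of 0.33, although its 3 libraries were all above the controls. In that comparison 34.3% of all genes tested were without overlap. Between the antibodies, anti-VEGFA was lower than anti-IL-8 by a log2 fold change of -0.21 (SE 0.16, 95% interval -0.55 to 0.14) with an adjusted p of 0.56. In the order control, OE-MMP28, anti-VEGFA, anti-IL-8 of the group means, no pair of neighbours differed past the threshold. The test of any difference among the 4 groups gave CHI3L1 an adjusted p of 0.17 in edgeR and 0.047 in DESeq2.

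**Figure D3:**
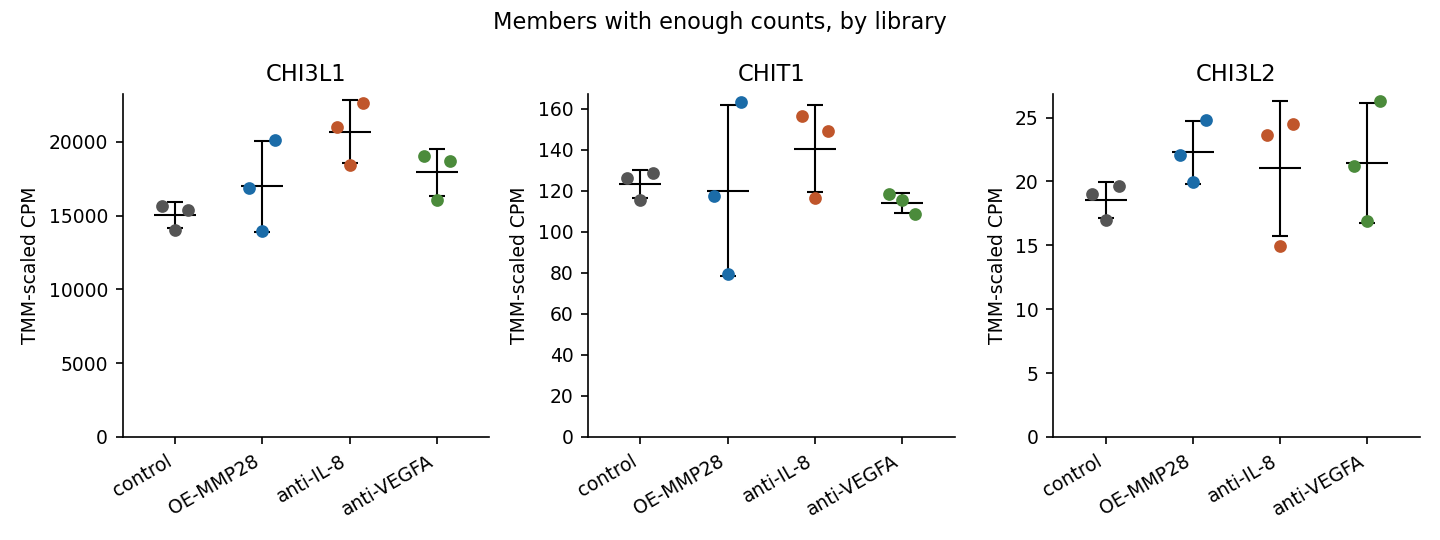
TMM-scaled CPM (y axes, from 0) of CHI3L1, CHIT1 and CHI3L2 in each library (points) of the 4 groups, with the mean and SD of 3 libraries as a line and bars. For CHI3L1 the anti-IL-8 libraries, 18401 to 22651, lie above the controls, 13997 to 15653, whereas the groups overlap throughout for CHIT1. In anti-IL-8 against control 47.8% of all genes tested were without overlap.

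CHIT1, the macrophage chitotriosidase, had 126, 115 and 128 CPM in the control libraries and 118, 79.6 and 163 CPM in the OE-MMP28 libraries. The OE-MMP28 group held both the lowest and the highest CHIT1 value of all 12 libraries. The means were 123 ± 6.98 and 120 ± 41.8 CPM (SD, n = 3), and the log2 fold change was -0.04 (SE 0.19, 95% interval -0.43 to 0.35) with an adjusted p of 0.96 by edgeR.

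CHIT1 had 156, 116 and 149 CPM with anti-IL-8. In the anti-VEGFA libraries it had 118, 115 and 109 CPM. The anti-VEGFA libraries lay close together and inside the wide OE-MMP28 range. Against OE-MMP28, the log2 fold change was 0.23 for anti-IL-8 (95% interval -0.16 to 0.62, adjusted p 0.43) and -0.07 for anti-VEGFA (95% interval -0.46 to 0.32, adjusted p 0.86). These values turned on OE-MMP28 replicates 2 and 3. Without replicate 3, anti-IL-8 was higher than OE-MMP28 by a log2 fold change of 0.53 with an adjusted p of 0.024, and without replicate 2 the log2 fold change was 0.0041 with an adjusted p of 0.99. Against control, CHIT1 gave 0.19 with anti-IL-8 (95% interval -0.20 to 0.58, adjusted p 0.49) and -0.11 with anti-VEGFA (95% interval -0.50 to 0.28, adjusted p 0.74). Anti-VEGFA against anti-IL-8 gave -0.30 (95% interval -0.69 to 0.09, adjusted p 0.46).

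CHI3L2, the second chitinase-like protein, had 323, 294 and 332 counts in the control libraries, or 19.1, 17.0 and 19.7 CPM. It had 22.0, 19.9 and 24.8 CPM with OE-MMP28, each above the highest control, though the lowest of them by only a small margin. The means were 18.6 ± 1.40 and 22.3 ± 2.46 CPM (SD, n = 3), and the log2 fold change was 0.26 (SE 0.19, 95% interval -0.13 to 0.66) with an adjusted p of 0.58 by edgeR. The separation of the 3 values in each group, which 21.3% of all genes tested shared, did not amount to a difference by this test.

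With anti-IL-8, CHI3L2 had 23.6, 14.9 and 24.5 CPM, the middle value being the lowest of all 12 libraries. With anti-VEGFA it had 21.2, 16.9 and 26.3 CPM, the last being the highest of all. Against OE-MMP28 the log2 fold change was -0.08 for anti-IL-8 (95% interval -0.48 to 0.31, adjusted p 0.79) and -0.05 for anti-VEGFA (95% interval -0.44 to 0.34, adjusted p 0.91). Against control it was 0.18 for anti-IL-8 (95% interval -0.22 to 0.57, adjusted p 0.52) and 0.21 for anti-VEGFA (95% interval -0.18 to 0.60, adjusted p 0.50), and between the antibodies 0.03 (95% interval -0.36 to 0.43, adjusted p 0.95).

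**Figure D4:**
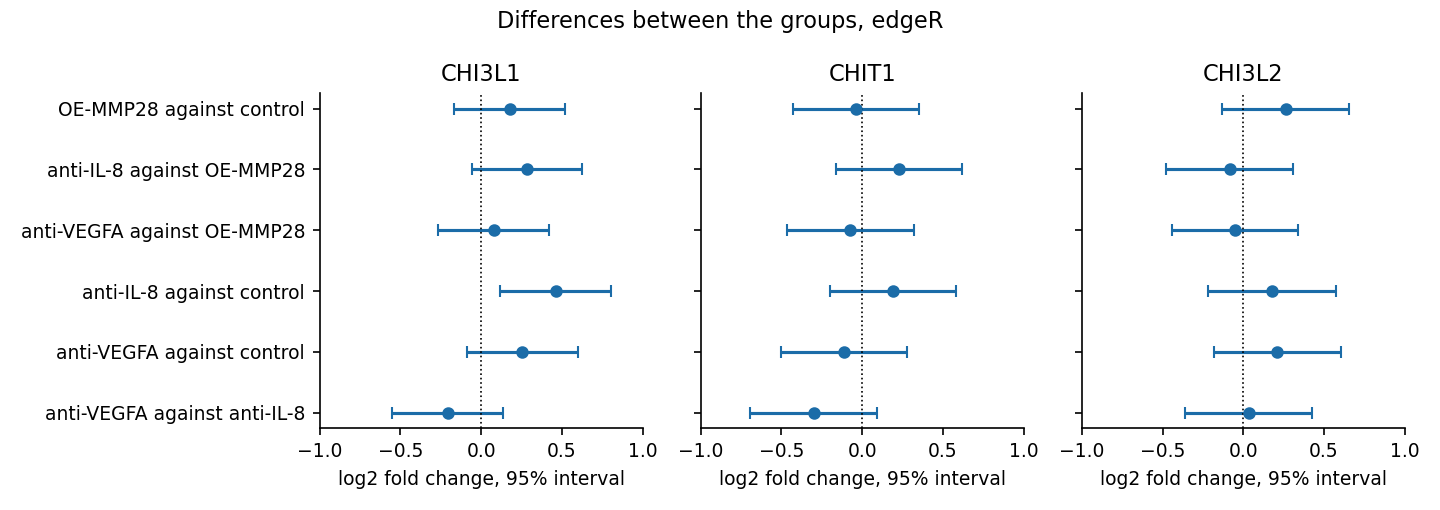
Log2 fold changes (points) with 95% intervals (bars) of CHI3L1, CHIT1 and CHI3L2 from the edgeR fit for the 6 comparisons between groups. Of the 18 intervals, only that of CHI3L1 in anti-IL-8 against control, 0.12 to 0.80, leaves out 0, and these intervals are not adjusted for the number of genes.

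CHIA, the acidic chitinase, had 3 counts in control replicate 2, 2 counts in anti-VEGFA replicate 3 and 0 in the other 10 libraries. All of these are at or below the limit of 3 counts that a count of 0 allows, and no fold was computed. At this depth the libraries did not separate CHIA from a gene without transcripts.

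The spread between the libraries of a group differed by gene and group. As the coefficient of variation of CPM in control, OE-MMP28, anti-IL-8 and anti-VEGFA, it was 5.96%, 18.2%, 10.4% and 9.01% for CHI3L1, and 5.66%, 34.8%, 15.1% and 4.28% for CHIT1. For CHI3L2 it was 7.56%, 11.0%, 25.1% and 21.9%. The controls were therefore close together for all 3 genes, while the widest group was OE-MMP28 for CHI3L1 and CHIT1 and anti-IL-8 for CHI3L2. Replicate 2 was the lowest and replicate 3 the highest of the OE-MMP28 libraries for CHI3L1, CHIT1 and CHI3L2 alike. Replicates 2 and 3 also had higher mitochondrial shares (11.8% and 12.3%) than replicate 1 (8.41%), and replicate 3 had the lowest TMM factor of all libraries (0.928). The part of these in the spread was not tested.

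Across the 12 libraries the correlations between the tested members were positive, and that of CHIT1 with CHI3L2 was weak. On log2 CPM, Pearson's r was 0.70 between CHI3L1 and its neighbour CHIT1, 0.59 between CHI3L1 and CHI3L2 and 0.38 between CHIT1 and CHI3L2. Spearman's rho was 0.63, 0.62 and 0.35 for the same pairs. With the group means taken out, r was 0.87, 0.76 and 0.53, each above the value over all libraries. These are descriptions over points that share their library, its depth and its scaling, and they were not set against other pairs of genes.

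The protein-coding genes most like CHI3L1 over the 12 libraries, out of 12053 compared, were YIPF3, a Golgi membrane protein, ATP6V0D1, a subunit of the proton pump that acidifies lysosomes, and GPAA1, a subunit of the enzyme that attaches GPI anchors. Pearson's r was 0.98 for each and rho 0.98, 0.99 and 0.98. For CHIT1 they were SSRP1, a histone chaperone (r 0.92, rho 0.78), LILRB3, an inhibitory receptor of myeloid cells (r 0.91, rho 0.59), and TGFB1 (r 0.90, rho 0.73). For CHI3L2 they were LGMN, the lysosomal protease legumain (r 0.90, rho 0.89), the chaperone gene HSP90AB1 (r 0.87, rho 0.89) and C3AR1, the receptor of complement C3a (r 0.85, rho 0.84). LILRB3 has a near-identical relative, LILRA6, with which it may share reads. Each list holds the highest of many correlations over the same 12 libraries.

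Humans have further proteins of family 18 that are not chitinases. CHID1, a secreted and lysosomal chitinase-domain protein, had a mean of 7.05 FPKM (4.23 to 9.66), OVGP1 (oviductin, a glycoprotein of the oviduct) 5.60 and CTBS (lysosomal chitobiase, which trims N-glycan remnants) 1.15. CHID1 and OVGP1 were thus near the level of CHI3L2 per length and far below CHI3L1. For CTBS, 39.1% of the exon bases lie in other genes, and OVGP1 and CTBS were chosen for naming after their values were seen.

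CHID1 had 35.0, 33.4 and 35.1 CPM in control, 42.3, 25.6 and 50.7 with OE-MMP28, 58.1, 42.8 and 57.4 with anti-IL-8, and 45.7, 38.2 and 47.3 with anti-VEGFA. Its OE-MMP28 libraries stood in the same order as those of CHI3L1. The anti-IL-8 libraries of CHID1 were all above the controls, where 47.8% of all genes tested were without overlap. By edgeR the log2 fold change was 0.20 (SE 0.19, adjusted p 0.70) for OE-MMP28 against control, 0.42 (SE 0.19, adjusted p 0.16) for anti-IL-8 against OE-MMP28 and 0.15 (SE 0.19, adjusted p 0.70) for anti-VEGFA against OE-MMP28. None of the 3 relatives passed in these comparisons.

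In anti-IL-8 against control, where 20.7% of all genes tested passed, all 3 relatives passed, CHID1 with a log2 fold change of 0.61 (SE 0.19, adjusted p 0.032) and OVGP1 with 0.52 (SE 0.17, adjusted p 0.034), while CTBS fell by 0.51 on the log2 scale (SE 0.16, adjusted p 0.037). Their median was 0.52 and that of all genes tested -0.02. In anti-VEGFA against control, with 11% of all genes tested past the threshold, OVGP1 rose and CTBS fell. The call of CHID1 held in 14 of 22 alternatives. It was lost with library totals (adjusted p 0.051), with FPKM, without any single control library (0.077 to 0.10) and without anti-IL-8 replicate 1 or 3 (0.10 and 0.11). OVGP1 held in 17 of 22 and CTBS in 13 of 22.

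Of 11 receptors and binding partners described for CHI3L1 and its relatives, 8 passed the filter on low counts. CD44, a hyaluronan receptor that CHI3L1 has been reported to bind, was the highest at 186 FPKM (142 to 211), followed by LGALS3, the sugar-binding galectin-3, at 60.6 (48.9 to 71.0). TMEM219, the membrane partner of IL13RA2 in CHI3L1 signalling, was at 35.9 (23.4 to 46.3). IL13RA2 itself, the best known CHI3L1 receptor, had 0 to 6 counts and a mean of 0.051 FPKM, and was not tested. PTGDR2 and STAB1, the sorting receptor of CHID1, also fell below the filter.

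None of the 8 passed in OE-MMP28 against control, in anti-IL-8 against OE-MMP28 or in anti-VEGFA against OE-MMP28, and their medians were -0.01, 0.12 and 0.10 against 0.02, -0.02 and 0.00 for all genes tested. CD44 had 2042 CPM on average in control, 1979 with OE-MMP28 and, with an antibody added, 1804 with anti-IL-8 against 1681 with anti-VEGFA. Its libraries with anti-VEGFA were all below those with OE-MMP28, with a log2 fold change of -0.23 (SE 0.14) and an adjusted p of 0.36 by edgeR. In that comparison 18.1% of all genes tested were without overlap. For TMEM219, anti-IL-8 against OE-MMP28 gave a log2 fold change of 0.39 (SE 0.18, adjusted p 0.17), and for LGALS3 0.18 (SE 0.14, adjusted p 0.41). Against control, 1 of the 8 rose with anti-IL-8 (ITGB5, an integrin subunit, by 0.47, SE 0.14, adjusted p 0.025) and 1 with anti-VEGFA (AGER, the receptor RAGE, by 1.15, SE 0.30, adjusted p 0.020). Counts of 1 in 8 are no more than the 20.7% and close to the 11% of all genes tested that passed there. ITGB5 and AGER were chosen for naming after their values were seen. The call of ITGB5 held in 17 of 22 alternatives, and that of AGER was not tried in them.

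**Figure D5:**
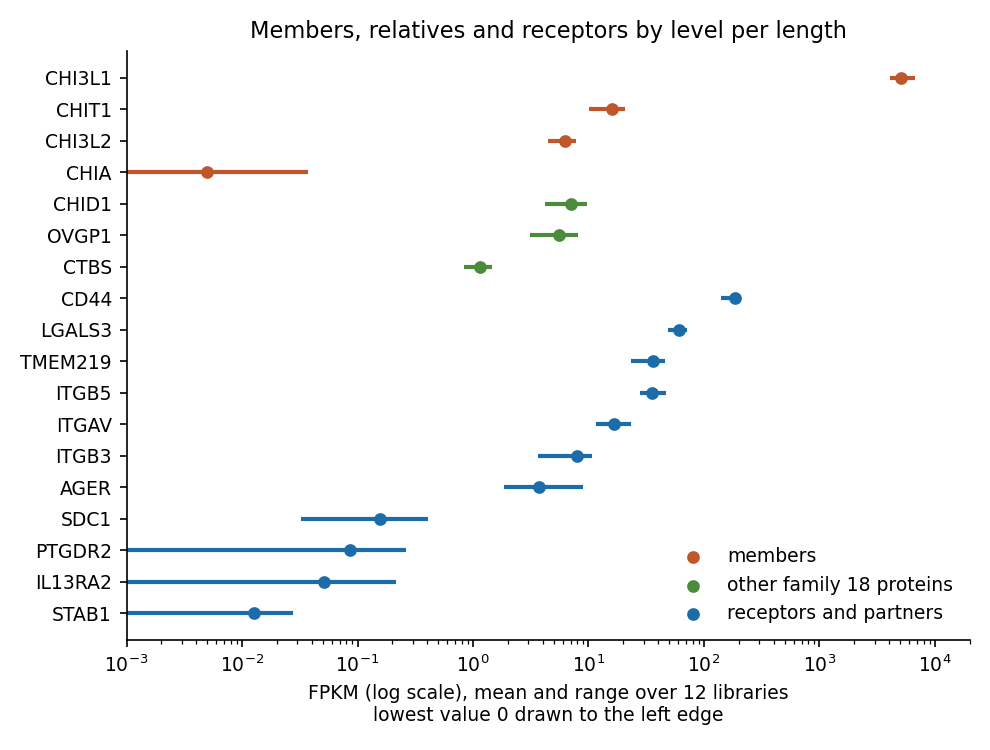
FPKM (x axis, log scale) of the 4 members, the 3 other family 18 proteins and the 11 receptors and partners, as the mean (point) and range (line) over 12 libraries. CHI3L1 at 5128 FPKM stands above its most abundant listed partner, CD44 at 186, and IL13RA2 at 0.051 lies among the genes near 0.

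Among 13 cytokines and transcription factors known to raise CHI3L1 or CHIT1, 12 passed the filter, IFNG being at 0 in every library. None of them passed in OE-MMP28 against control or in either antibody group against OE-MMP28, with medians of 0.03, 0.07 and 0.24. IL1B, the gene of interleukin-1β, was the most abundant, with a mean of 2669 FPKM. Against control, 3 of 12 rose with anti-IL-8, and 1 rose with anti-VEGFA, near the 20.7% and 11% of all genes tested that passed in either direction. With anti-IL-8 these were SPI1, the myeloid factor PU.1, by 0.68 (SE 0.22, adjusted p 0.036), RELB, an NF-kB subunit, by 0.46 (SE 0.13, adjusted p 0.023) and TFEB, a regulator of lysosomal genes, by 0.46 (SE 0.14, adjusted p 0.031), all by edgeR. With anti-VEGFA it was TNF, by 0.70 (SE 0.22, adjusted p 0.048). SPI1 is also among the macrophage markers. IL1B and SPI1, RELB, TFEB and TNF were chosen for naming after their values were seen. The calls of these 4 were not tried in the alternatives.

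CHIT1 goes with a set of genes in lipid-laden macrophages, of which 14 were listed and 12 tested. In OE-MMP28 against control, where 3.16% of all genes tested passed, 1 of 12 rose and none fell, with a median of 0.38 against 0.02 for all genes tested. It was CTSK, the protease cathepsin K, with 19.6, 20.3 and 24.9 CPM in control and 32.5, 30.9 and 32.4 with OE-MMP28. All OE-MMP28 libraries were above all controls, and 21.3% of all genes tested were likewise without overlap in this comparison. The log2 fold change was 0.56 (SE 0.15) and the adjusted p 0.041 by edgeR, and this call held in 14 of 22 alternatives. It was lost with library totals (0.090), without control replicate 1 or 2 (0.22 and 0.21), without OE-MMP28 replicate 1 or 3 (0.13 and 0.071) and without any single anti-IL-8 library (0.056 to 0.059). None of the 12 passed against OE-MMP28 with either antibody.

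In anti-IL-8 against control 5 of the 12 rose and none fell (APOC1, APOE, CTSK, FABP4 and TREM2), with a median of 0.47, where 20.7% of all genes tested passed in either direction. For APOC1, 43.2% of the exon bases lie in another gene. TREM2, a lipid-sensing receptor chosen for naming after its values were seen, had 24.0 ± 1.93 CPM in control and 48.2 ± 7.12 with anti-IL-8 (SD, n = 3), a log2 fold change of 1.00 (SE 0.21, adjusted p 0.0038 by edgeR) that passed in 22 of 22 alternatives. APOE and CTSK rose and LIPA, the lysosomal acid lipase, fell in anti-VEGFA against control, where 11% of all genes tested passed. APOC1, APOE, FABP4 and LIPA were likewise chosen for naming after their values were seen. CHIT1 passed in none of these comparisons, as given above. CCL18, the other classical plasma marker of Gaucher cells, had 0 to 2 counts and was not tested.

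For chitin recognition and the breakdown of N-acetylglucosamine, 10 of 11 listed genes were tested. In OE-MMP28 against control, with 3.16% of all genes tested past the threshold, 1 of 10 rose, FCGR2A, an activating receptor for immunoglobulin G. Reads of FCGR2A may be shared with its relative FCGR2C, and this was not tested. FCGR2A had 43.2, 50.5 and 52.4 CPM in control and 61.7, 68.8 and 68.3 with OE-MMP28, without overlap, as were 21.3% of all genes tested. The log2 fold change was 0.44 (SE 0.12) with an adjusted p of 0.0495 by edgeR. The call held in 8 of 22 alternatives, and adjusted p ranged from 0.042 to 0.29 with single libraries left out. None passed against OE-MMP28 with either antibody.

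In anti-IL-8 against control, where 20.7% of all genes tested passed, 3 of the 10 did. Of these 2 rose, HEXA, a subunit of lysosomal hexosaminidase, and RENBP, an enzyme of amino sugar metabolism, and 1 fell. That was CLEC7A, the fungal glucan receptor dectin-1, with 13.4 ± 1.42 CPM in control and 5.86 ± 0.373 with anti-IL-8 (SD, n = 3). Its log2 fold change was -1.19 (SE 0.18, adjusted p 3.4e-04 by edgeR), and it passed in 22 of 22 alternatives. In anti-VEGFA against control, where 11% of all genes tested passed, 2 fell, CLEC7A and the kinase gene NAGK. These 4 genes were chosen for naming after their values were seen.

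Of the macrophage markers, 1 of the 9 tested rose in OE-MMP28 against control, where 3.16% of all genes tested passed. CD14, the coreceptor for lipopolysaccharide, had 752 ± 89.6 CPM in control and 1310 ± 425 with OE-MMP28 (SD, n = 3), a log2 fold change of 0.80 (SE 0.19) with an adjusted p of 0.027 by edgeR. The call was lost with FPKM (0.11), without control replicate 1, 2 or 3 (0.069, 0.17 and 0.084) and without OE-MMP28 replicate 1 or 3 (0.059 and 0.12). Against control, 3 of the 9 rose with anti-IL-8, and 1 rose with anti-VEGFA, where 20.7% and 11% of all genes tested passed in either direction.

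Of the 4 epithelial markers tested, 1 fell in OE-MMP28 against control (3.16% of all genes tested passed), MUC1, from 3.62 ± 0.244 to 1.80 ± 0.227 CPM (SD, n = 3), a log2 fold change of -1.01 (SE 0.25) with an adjusted p of 0.034 by edgeR. It was lost without any single control library (0.083 to 0.12) and without OE-MMP28 replicate 1 or 2 (0.12 and 0.088). The median of the 4 was 0.11. EPCAM, KRT8, KRT18, KRT19 and CDH1 were at 10 counts or fewer in all libraries, while S100P, KRT7 and ELF3 had means of 20.8, 12.25 and 8.67 counts. CHI3L1 had at least 238861 counts in each library. The part of AsPC-1 RNA in these counts was not tested.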

How the data were processed

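RNA was sequenced from 12 THP-1-derived TAM libraries in 4 groups, taken from the labels. The deposited counts are read counts per gene from the authors, made per the labels' processing notes with HISAT2 2.0.5 and featureCounts 1.5.0-p3. FPKM were deposited as the authors computed them. Build and strand setting are not given in the sources used here. A further 30 deposited columns hold the authors' own tests (fold changes with raw and adjusted p-values) and were not used.

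Counts were analysed in R 4.3.3 with edgeR 4.0.16 (filterByExpr, TMM, 1 quasi-likelihood fit with a coefficient per group). It tested 16046 genes with two-sided tests and Benjamini-Hochberg adjustment within each comparison. A prior count of 2 was used only for the log2 CPM of the correlations. CPM after TMM are relative to the summed counts of the tested genes. The code was tested on simulated data. The study's linear model in limma was tried as voom and on log2(FPKM + 1) and log2(FPKM + 0.1) with limma 3.58.1. Other alternatives were DESeq2 1.42.0, library totals, upper quartile factors, no filter, a mean of at least 10 counts, fits of 2 groups, a block on the replicate number and each of the 12 libraries left out, those outside a comparison having been added after the data were seen, as were the alternatives of 10 list genes. Those of the 10 cover 1 comparison each, and the calls of other list genes were not tried in the alternatives.

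The members and the 7 gene lists were chosen with earlier results of these data known. By rule, the text names the members, CD44, LGALS3, IL13RA2, TMEM219 and CHID1, list genes past the adjusted threshold in the 3 comparisons the study reports (at most 4 per list and comparison), and the 3 protein-coding genes with at least 1 CPM most correlated with each tested member. Genes named outside it are said to have been chosen after their values were seen. Lists are described by counts and medians only. Promoters are RefSeq's, on GRCh38.p14.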

Additional observations from a re-analysis of the deposited data

How the results depend on the processing

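Over all alternatives, 396 fold changes of CHI3L1, CHIT1 and CHI3L2 were computed. Direction and side of the threshold were kept in 373, 14 came past the threshold and 9 changed sign, all 9 among values whose intervals span 0. For anti-IL-8 against control, the number of members past the adjusted threshold was 1 (CHI3L1) instead of 0 with upper quartile factors, DESeq2, voom, no filter, a mean of at least 10 counts, the 2 groups alone or the unadjusted threshold, and 0 to 1 with single libraries left out. For anti-IL-8 against OE-MMP28 it was 0 to 1 with single libraries left out (CHIT1 without OE-MMP28 replicate 3), and for any difference 1 (CHI3L1) with DESeq2. Leaving out mitochondrial genes moved the CHI3L1 share to 1.68% in control and 2.23% with anti-IL-8.

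With single libraries left out, the log2 fold changes that changed sign ranged from -0.32 to 0.19 for CHIT1 in OE-MMP28 against control, from -0.20 to 0.11 for CHI3L2 in anti-IL-8 against OE-MMP28 and, in anti-VEGFA against OE-MMP28, from -0.047 to 0.22 for CHI3L1, from -0.23 to 0.10 for CHI3L2 and from -0.30 to 0.21 for CHIT1. For CHI3L2 in anti-VEGFA against anti-IL-8 it ranged from -0.17 to 0.15. The cause of these changes was not tested.

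The count of all genes past the threshold moved further. DESeq2 called 2259 in anti-IL-8 against OE-MMP28, 429 in anti-VEGFA against OE-MMP28, 252 in anti-VEGFA against anti-IL-8 and 4172 for any difference, and without a filter the counts were 1438, 400, 277 and 4197. Fits of 2 groups gave 6039 in anti-IL-8 against control, 1 in anti-VEGFA against OE-MMP28 and 17 in anti-VEGFA against anti-IL-8. FPKM + 0.1 gave 1 in anti-IL-8 against OE-MMP28 and 1838 for any difference, and FPKM + 1 gave 53 in anti-VEGFA against anti-IL-8. The unadjusted threshold and, second, the range with single libraries left out gave 2332 and 295 to 641 for OE-MMP28 against control, 4700 and 0 to 4125 for anti-IL-8 against OE-MMP28, 3019 and 8 to 1402 for anti-VEGFA against OE-MMP28, 5761 and 1312 to 4309 for anti-IL-8 against control, 4325 and 662 to 2582 for anti-VEGFA against control, and 2409 and 3 to 112 for anti-VEGFA against anti-IL-8. The range for any difference was 916 to 5192.

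Replicate numbers gave no clear sign of pairing the libraries, though 3 libraries per group are too few to settle it. Deviations from the group means correlated with a median r of 0.0023 over 18 pairs with the same number (-0.16 to 0.24, 4 of 18 over 0.1). Over 36 other pairs the median r was -0.013 (-0.32 to 0.34, 10 of 36 over 0.1). With a replicate block, CHI3L1 in anti-IL-8 against control had an adjusted p of 0.031, so that 1 member passed, and 795 genes passed in anti-IL-8 against OE-MMP28.

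CHIA alone among the members had too few counts at this depth to be tested. For the others, the intervals rest on the spread between 3 libraries per group, counting error included. The part of counting error in their width was not tested.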
